A study of Mus musculus with 4 samples.

Results

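Transcripts of 10 genes of the transforming growth factor beta (TGF-beta) pathway were followed in basal mammary cells of the mouse with and without the microRNA miR-205. They were the ligand genes Tgfb1, Tgfb2 and Tgfb3, the latency protein gene Ltbp1, the receptor genes Tgfbr1, Tgfbr2 and Tgfbr3, the signal transducer Smad3, the inhibitor Smad7 and the responsive gene Tgfbi. These 10 genes were chosen by symbol, and each had a row among the 34615 gene rows of the count files. All 10 passed the filter on low counts, which left 15364 genes for testing. The knockout (KO) was labelled miR205fl/flmTmGfl/fl cre+ and its control (WT) was labelled WTfl/flmTmGfl/fl cre+. Mammary cells of both groups carried the mTmG reporter, which turns from membrane red to membrane green when Cre acts. Both were exposed to an adenovirus that carries Cre and were then transplanted into SCID-Beige mice aged 3 weeks. This host lacks functional lymphocytes, and its stroma carries neither genotype. Green CD24+CD49fhigh cells were sorted from outgrowths at 8 weeks, from a pool of 40 outgrowths. Cre came from the virus before transplantation and not from a basal promoter, so it was not limited to the basal lineage. RNA was sequenced in 2 KO and 2 WT libraries, and nothing in the labels says that the libraries of a genotype came from separate pools. Spread between libraries, on which the p-values rest, may thus be technical.

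TGF-beta is secreted as a latent complex, in which a propeptide holds the ligand and an LTBP protein ties it to the matrix. Integrins can release the ligand of some isoforms, and free ligand binds the type II receptor TGFBR2. That receptor phosphorylates the type I receptor TGFBR1, which in turn phosphorylates SMAD2 and SMAD3. These join SMAD4, enter the nucleus and switch on target genes, among them Smad7, whose protein shuts the receptor down. In the mammary gland the pathway is known as a brake on epithelial growth and duct branching, and as an inducer of matrix genes and of epithelial to mesenchymal transition.

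The deleted gene encodes miR-205, which recognises transcripts through its seed, so the mature sequence (RefSeq, GRCm38.p6, chr1:193507503-193507524, minus strand) is shown with the seed, bases 2 to 8, in capitals. The letters ATGAAGG, the complement of the seed, were searched on the transcript strand in the longest annotated 3' UTR (GENCODE M21, GRCm38) of each of the 10 genes, and 3 genes held them. Their sites are shown with the match in capitals, in the order Tgfbr1, Tgfbr3 and Tgfb3.
mmu-miR-205-5p: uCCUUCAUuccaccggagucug
Tgfbr1: ttaagctagcATGAAGGaagtatgact
Tgfbr3: ggtttttaacATGAAGGtgtctttggg
Tgfb3: cctacaaaagATGAAGGgtagagtggt

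The Tgfbr1 match lies at chr4:47413350-47413356 on the plus strand, at base 2573 of a 3' UTR of 4154 bases. It is followed by an A, which makes it an 8mer, the longest class of seed match. The Tgfbr3 match lies at chr5:107108069-107108075 on the minus strand, at base 1564 of 3069 bases. The Tgfb3 match lies at chr12:86057452-86057458 on the minus strand, at base 322 of 1035 bases. Of 18175 genes with a row and an annotated 3' UTR, 2035 (11.2%) held the same letters. Among 3' UTRs within 20% of the same length the share was 27.97% for the length of Tgfbr1, 23.96% for that of Tgfbr3 and 7.97% for that of Tgfb3. A shorter match to bases 2 to 7 was found in 5 of the 10 genes and in 33.95% of all genes. Tgfb1, Tgfb2, Ltbp1, Smad7 and Tgfbi held neither match in the longest 3' UTR. A match describes the letters only, and the counts give no measure of binding.

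Gene counts per library ran from 47953972 to 60030932. KO replicate 2 stood apart: 12679 genes had a count there, against 18897 in KO replicate 1 and 18139 and 18027 in the WT libraries. Across tested genes, which are not independent replicates, its log2 level correlated with the other libraries at 0.88 to 0.888, while the other libraries correlated at 0.965 to 0.976. Mir205 itself had 0 counts in all 4 libraries, so it could not be used to check the genotype labels. Of the basal markers, Krt5, the basal keratin, stood at 1773 and 1512 CPM (counts per 1000000 gene counts, TMM-scaled) in KO and 1219 and 1219 CPM in WT, with the values of each group in replicate order here and below. Trp63, the basal lineage factor, stood at 901 and 1309 CPM in KO and 1049 and 904 CPM in WT. Of the 8 basal markers, 3 (Krt5, Oxtr and Itga6) were higher in both KO libraries, beside 13.2% of all genes tested. None (0) were lower in both, beside 19.2%. Itga6 encodes CD49f, an antigen of the sort, so its level is not independent of the sort. Myh11 and Cnn1 had log2 fold changes below 0, at -0.17 and -0.15, and the other basal markers above 0. The 9 luminal markers summed to 1038 and 1553 CPM in KO and 923 and 1401 CPM in WT, so the groups overlapped, as they did for the luminal keratin Krt8. Of these 9, the receptor gene Kit and the transcription factor gene Elf5 were lower in both KO libraries, beside 19.2% of all genes tested. Kit stood at 6.91 and 1.44 CPM in KO and 15.6 and 27.6 CPM in WT. Elf5 had 94 and 0 reads in KO and 172 and 285 reads in WT. KO replicate 2 had no count for 40.56% of the genes at 1 to 5 CPM in WT, Elf5 among them. The part of detection in the Elf5 difference was not tested. No luminal marker was higher in both KO libraries, beside 13.2% of all genes tested.

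None of the 10 genes passed the edgeR quasi-likelihood test of KO against WT, where all had a Benjamini-Hochberg adjusted p of 0.999. The same test called 0% of all genes, and 0 of the 10 genes, against 0.957% of all genes, had an unadjusted p under 0.05. DESeq2 called 0.026% of all genes and limma voom 0%, none of them among the 10. Fold changes of KO over WT were positive in 8 of the 10 genes, with a median of 0.18 on the log2 scale. With total count scaling 6 were positive and the median was 0.06, and with upper quartile scaling 7 were positive and the median was 0.07. Over all genes tested 42.8% were positive and the median was -0.14. KO replicate 2 had no count for 40.56% of the genes at 1 to 5 CPM in WT, against 0.59% in KO replicate 1, so abundant genes were also taken alone. Among the 8841 tested genes with a mean of 5 CPM or more, which include all 10, 53.4% were positive and the median was 0.05. Both KO libraries lay above both WT libraries in 3 of the 10 genes (13.2% of all genes tested, and 18.5% of those at 5 CPM or more), namely Tgfb2, Tgfb3 and Tgfbr3. Both lay below in 0 of the 10 (19.2% and 14.6%). In either direction the groups were thus separate in 3 of the 10 genes, beside 32.4% of all genes tested.

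**Figure D1:**
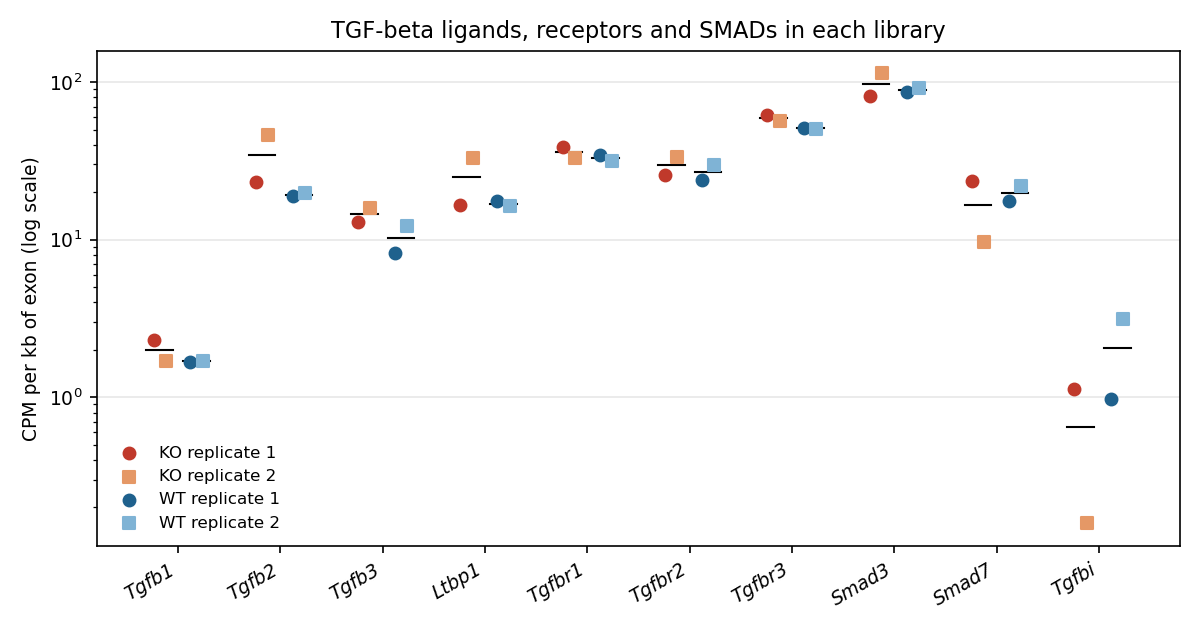
Level of each gene in CPM per kb of exon (log axis) in the 4 libraries, KO left and WT right, with a line at each group mean. Smad3 and Tgfbr3 stand highest in every library, Tgfb1 and Tgfbi lowest, and KO replicate 2 lies away from the other libraries for Tgfb2, Ltbp1, Smad7 and Tgfbi.

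Levels of different genes were set side by side as CPM per kb of exon. Smad3 was the most abundant transcript of the 10 in every library, with a mean of 97.6 ± 22.9 CPM per kb in KO and 89.4 ± 3.39 CPM per kb in WT (SD, n = 2 each). Tgfbr3 came next in every library, with 59.0 ± 3.82 CPM per kb in KO and 50.8 ± 0.214 CPM per kb in WT. Tgfbr1, Tgfbr2, Tgfb2 and Ltbp1 filled the middle, from 16.3 to 46.2 CPM per kb over the 4 libraries, and in KO their ranges overlapped. Smad7 stood among them at 17.6 to 23.4 CPM per kb in every library but KO replicate 2, where it had 9.63 CPM per kb. Tgfb1 and Tgfbi were the lowest pair in every library, at 3.12 CPM per kb or less.

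Of the ligand genes, Tgfb2 was the most abundant in every library and had the largest difference between the groups. Its protein is the ligand isoform that needs TGFBR3 to bind the type II receptor well. Tgfb2 (ENSMUSG00000039239) had 134 and 268 CPM in KO replicates 1 and 2, and 110 and 114 CPM in WT replicates 1 and 2. Both KO libraries were above both WT libraries, with KO replicate 2 far above the rest. Tgfb2 had a log2 fold change of 0.84 ± 0.38 (SE; unadjusted p = 0.0767 in the edgeR test), and 0.27 ± 0.19 without KO replicate 2. With KO replicate 2 as the lone KO library it was 1.25 (edgeR adjusted p = 0.00394), in a fit that called 34.9% of all genes tested there.

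Tgfb3, a ligand gene linked to the death of alveolar epithelium after weaning in mice, had 44.1 and 53.8 CPM in KO and 27.8 and 41.1 CPM in WT. The groups did not overlap, but WT replicate 2 lay nearer to KO replicate 1 than to WT replicate 1. Tgfb3 had a log2 fold change of 0.51 ± 0.40, and 0.36 ± 0.34 without KO replicate 2. Leaving out a WT library moved it further, to 0.25 without WT replicate 1 and 0.82 without WT replicate 2. Tgfb1, the ligand gene most widely expressed in other tissues, was scarce here. Tgfb1 had 11.6 and 8.60 CPM in KO and 8.48 and 8.61 CPM in WT, so the groups overlapped, with a log2 fold change of 0.24 ± 0.75, which was 0.006 without KO replicate 1 and 0.44 without KO replicate 2. In reads, this was 728 and 359 in KO and 478 and 512 in WT.

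The make-up of the ligand transcripts did not differ between the groups beyond the spread of the libraries. Tgfb2 gave 66.3 ± 8.62% of the summed ligand level per kb in KO and 62.2 ± 4.99% in WT (SD, n = 2 each). Tgfb3 gave 29.4 ± 6.30% in KO and 32.3 ± 5.52% in WT, and Tgfb1 gave 4.32 ± 2.32% in KO and 5.46 ± 0.53% in WT. Each difference was smaller than the SD of the KO libraries. The summed level itself was 38.5 and 63.8 CPM per kb in KO, against 28.9 and 33.6 CPM per kb in WT, with no overlap between the groups. Exact permutation of 2 against 2 libraries cannot give a p below 0.333.

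**Figure D2:**
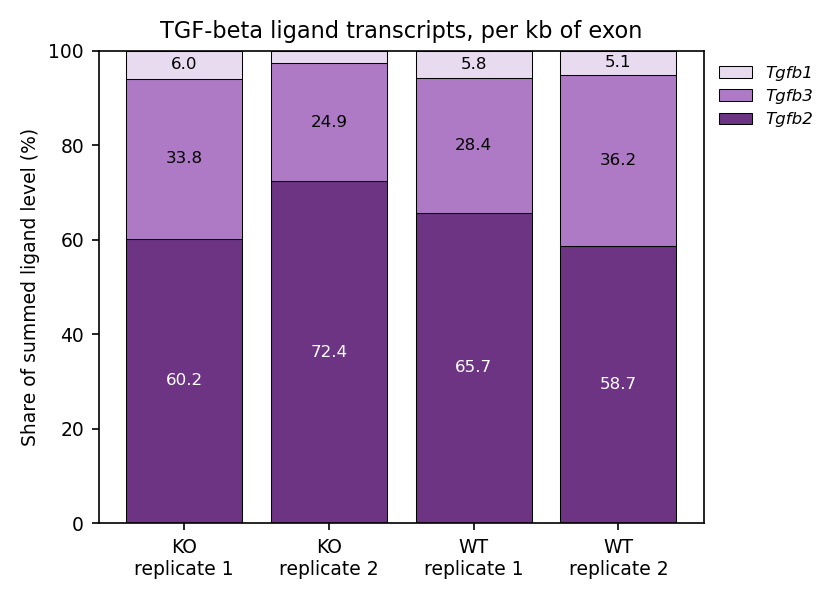
Share of each ligand gene in the summed ligand level (percent, from CPM per kb of exon) in the KO and WT libraries. Tgfb2 takes 60.2% and 72.4% in KO and 65.7% and 58.7% in WT, and the Tgfb1 segment of KO replicate 2 is 2.67%.

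Ltbp1, which ties latent TGF-beta to the matrix, showed how far the KO libraries lay from each other. Ltbp1 (ENSMUSG00000001870) had 176 and 355 CPM in KO and 188 and 174 CPM in WT. KO replicate 1 fell between the WT libraries, and KO replicate 2 had the highest value. Ltbp1 had a log2 fold change of 0.56 ± 0.37 over the 4 libraries and -0.03 ± 0.18 without KO replicate 2, so its sign rested on that library. With KO replicate 2 as the lone KO library it was 0.97.

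Over the 4 libraries the receptor genes had smaller fold changes than the ligand genes, an order that did not hold without KO replicate 1, KO replicate 2 or WT replicate 2. Tgfbr3, or betaglycan, a co-receptor that presents ligand to the type II receptor, had 404 and 369 CPM in KO and 333 and 331 CPM in WT. The groups did not overlap, and the WT libraries were almost equal. Tgfbr3 had a log2 fold change of 0.22 ± 0.19, and 0.28 ± 0.15 without KO replicate 2, so of the 3 genes with separate groups it leaned least on that library.

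Tgfbr1, the type I receptor kinase, had 254 and 216 CPM in KO and 224 and 205 CPM in WT. KO replicate 2 fell between the WT libraries, and the log2 fold change was 0.13 ± 0.21, with 0.006 without KO replicate 1 and 0.25 without KO replicate 2. Tgfbr2, the type II receptor kinase, had 209 and 275 CPM in KO and 195 and 245 CPM in WT. The groups overlapped, and the log2 fold change of 0.14 ± 0.25 turned to -0.07 without KO replicate 2, to -0.02 without WT replicate 1 and to -0.003 with total count scaling. Per kb, Tgfbr1 stood at 1.52 and 0.983 times Tgfbr2 in KO and at 1.44 and 1.05 times in WT. The WT ratios of these kinases thus lay between the KO ratios.

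Smad3, the transducer that binds DNA downstream of the receptors, had 451 and 631 CPM in KO and 482 and 508 CPM in WT. The KO libraries lay on either side of the WT libraries. Its log2 fold change of 0.13 ± 0.23 turned to -0.13 ± 0.14 without KO replicate 2, to -0.02 with total count scaling and to -0.002 with upper quartile scaling. Smad7 (ENSMUSG00000025880), the inhibitor that the pathway itself induces, had 106 and 43.6 CPM in KO and 79.7 and 98.5 CPM in WT. Here too the KO libraries lay on either side, with KO replicate 1 highest and KO replicate 2 lowest of all 4. Smad7 had a log2 fold change of -0.25 ± 0.49 over the 4 libraries, which turned to 0.25 ± 0.23 without KO replicate 2. With KO replicate 2 alone in KO it was -1.04. Per kb, Smad3 stood at 3.48 and 11.8 times Smad7 in KO and at 4.94 and 4.21 times in WT.

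Tgfbi, a secreted matrix protein named for its induction by TGF-beta, had the lowest mean CPM of the 10 over the 4 libraries. Tgfbi (ENSMUSG00000035493) had 4.28 and 0.599 CPM in KO and 3.66 and 11.8 CPM in WT. In reads this was 269 and 25 in KO and 206 and 700 in WT. The WT libraries differed by 1.56 on the log2(CPM + 0.5) scale, more than for any other of the 10 genes. Its log2 fold change of -1.66 ± 1.42 had the widest error of the 10, and without KO replicate 2 it was -0.85 ± 0.81. It rested on WT replicate 2 as well, with -0.58 without that library and -2.26 without WT replicate 1. Its lowest value was in KO replicate 2, where many low genes had no count, and the part of detection in this value was not tested.

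Set against the WT libraries separately, the KO libraries shared only part of their pattern. In KO replicate 1, 6 of the 10 genes lay above both WT libraries (31.4% of all genes tested, and 34.4% of those at 5 CPM or more), namely Tgfb1, Tgfb2, Tgfb3, Tgfbr1, Tgfbr3 and Smad7. Smad3 alone lay below both (30.9% of all genes). In KO replicate 2, 6 also lay above both (34.2% of all genes, and 47.1% of those at 5 CPM or more), namely Tgfb2, Tgfb3, Ltbp1, Tgfbr2, Tgfbr3 and Smad3. Smad7 and Tgfbi lay below both WT libraries there (54.9% of all genes). Relative to the WT mean on the log2(CPM + 0.5) scale, the median of the 10 genes was 0.25 for KO replicate 1, where that of all genes tested was 0.001. For KO replicate 2 it was 0.24, where that of all genes tested was -0.40. Among tested genes at 5 CPM or more, the medians were 0.02 for KO replicate 1 and 0.07 for KO replicate 2. The largest shifts were all in KO replicate 2, at 1.25 for Tgfb2, 0.97 for Ltbp1, -1.02 for Smad7 and -2.70 for Tgfbi. In KO replicate 1 the 10 genes stayed between -0.58 for Tgfbi and 0.42 for Tgfb1. The fit without KO replicate 2 called 0% of all genes, and the fit without KO replicate 1 called 4 of the 10 genes, beside 34.9% of all genes. Of these, Tgfb2 and Ltbp1 were higher (12.4% of all genes) and Smad7 and Tgfbi lower (22.5%) in KO replicate 2.

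**Figure D3:**
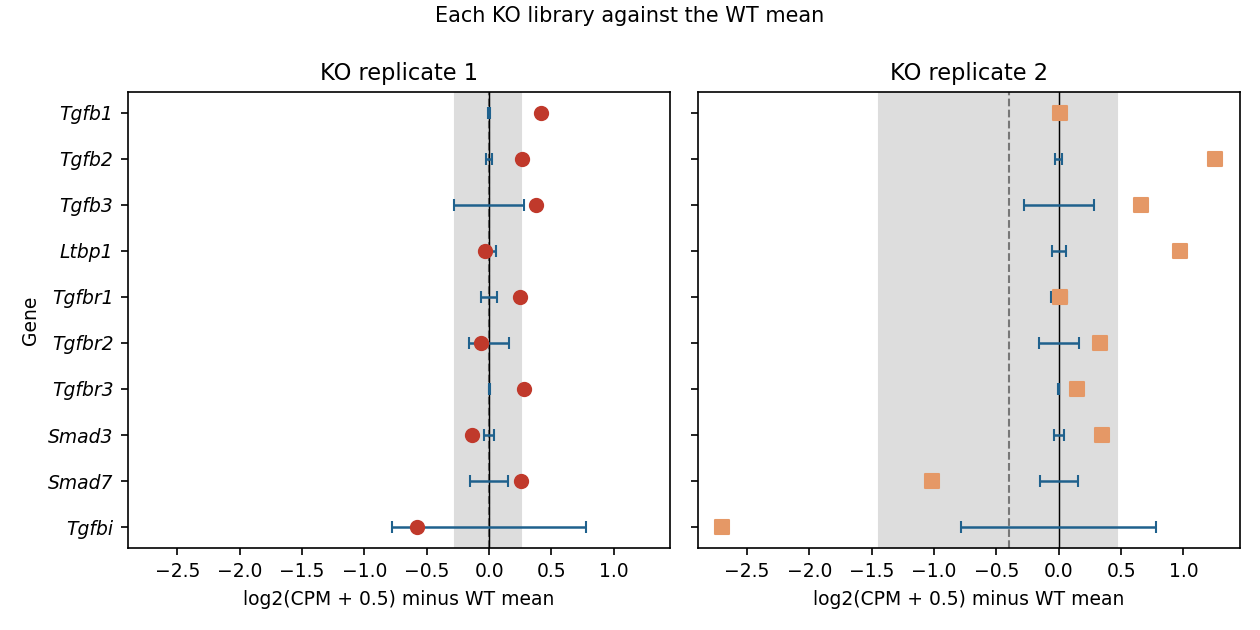
Difference of KO replicate 1 (left) and KO replicate 2 (right) from the WT mean in log2(CPM + 0.5), per gene, with bars reaching to the WT libraries on either side of 0. The grey band and dashed line give the 25% to 75% quantile range and the median of all tested genes in that library. The band is wider in KO replicate 2, from -1.44 to 0.47. Among genes at 5 CPM or more the median is 0.02 in KO replicate 1 and 0.07 in KO replicate 2.

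Further genes of the pathway were read from 4 lists built from general knowledge, with 72 entries, 68 rows and 66 tested genes. None passed the edgeR test over all genes, in either direction. Both KO libraries were above both WT libraries in 10 of the 66 and below in 11, beside 13.2% and 19.2% of all genes tested.

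Of 17 tested genes of latency and activation, 12 had a log2 fold change above 0 and 5 below. The median was 0.22, and 0.001 without KO replicate 2. Dcn, which encodes decorin, a matrix proteoglycan that binds TGF-beta, had 153 and 221 CPM in KO and 89.5 and 106 CPM in WT. Its log2 fold change of 0.94 ± 0.29 had the smallest unadjusted p of the lists, 0.0221 in the edgeR test, and was 0.66 without KO replicate 2. Ltbp4, a relative of Ltbp1, had 125 and 443 CPM in KO and 99.6 and 99.7 CPM in WT. The difference in Ltbp4 rested mainly on KO replicate 2: its log2 fold change was 1.51 ± 0.61, and 0.33 without that library. The 3 most abundant genes of this list were Thbs1, Itgb1 and Itgav. Thbs1, a matrix protein that can activate the latent ligand, had 5463 and 5031 CPM in KO and 4910 and 5174 CPM in WT. The integrin chain genes Itgb1 and Itgav, whose products take part in ligand release, had log2 fold changes of 0.23 ± 0.21 and 0.00 ± 0.19. Itgb1 was at 0.001 without KO replicate 2 and at 0.43 without KO replicate 1, and Itgav turned to -0.12 with total count scaling.

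Of 8 receptor partners, 2 had a log2 fold change above 0 and 6 below. The median was -0.32, and -0.002 without KO replicate 2. Bambi, a decoy receptor, had 8.27 and 0.192 CPM in KO and 14.8 and 12.9 CPM in WT, so both KO libraries were below. Its log2 fold change was -1.71 ± 1.63, and -0.74 without KO replicate 2, where it had 8 reads. Eng, the endothelial co-receptor endoglin, had 20.3 and 3.28 CPM in KO and 16.6 and 31.9 CPM in WT. The most abundant of this list were Fkbp1a, which encodes a binder of the type I receptor, Strap, whose product works with SMAD7, and the endocytic adaptor gene Dab2, with log2 fold changes of -0.02 ± 0.20, -0.23 ± 0.30 and 0.63 ± 0.72. Strap turned to 0.09 and Dab2 to -0.38 without KO replicate 2, and Fkbp1a to 0.04 without WT replicate 2.

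Among 16 tested SMAD transducers and regulators, 9 had a log2 fold change above 0 and 7 below. The median was 0.16, and 0.065 without KO replicate 2. Pmepa1, a TGF-beta induced inhibitor of SMAD signalling, was the most abundant, with 2568 and 3527 CPM in KO and 2167 and 2271 CPM in WT, and no overlap. Its log2 fold change was 0.46 ± 0.22, and 0.21 without KO replicate 2. Ski, a nuclear repressor of SMADs, had 322 and 989 CPM in KO and 315 and 305 CPM in WT, so KO replicate 1 lay close to WT and KO replicate 2 far above. Its log2 fold change was 1.08 ± 0.54, and 0.06 without KO replicate 2. Nedd4l, a ubiquitin ligase that acts on activated SMADs, had 521 and 828 CPM in KO and 490 and 575 CPM in WT. Wwp1, another ubiquitin ligase of that family, had 83.1 and 159 CPM in KO and 70.8 and 69.2 CPM in WT. Smad2 and Smad4, the partners of Smad3, were added after their values were seen. Smad2 had 103 and 126 CPM in KO and 86.2 and 95.3 CPM in WT. Smad4 had 93.5 and 89.1 CPM in KO and 99.7 and 91.3 CPM in WT, so its groups overlapped.

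Among 25 tested TGF-beta responsive genes, 12 had a log2 fold change above 0 and 13 below. The median was -0.05, and 0.07 without KO replicate 2. Fn1, which encodes fibronectin, had 120 and 159 CPM in KO and 85.1 and 94.7 CPM in WT (log2 fold change 0.63 ± 0.27). The most abundant genes of this list had log2 fold changes of -0.05 ± 0.18 for Postn (the matrix protein periostin), -0.32 ± 0.25 for Timp3 (a metalloprotease inhibitor) and 0.06 ± 0.29 for Bhlhe40 (a transcription factor). Timp3 was at -0.006 without WT replicate 1 and -0.58 without WT replicate 2. Postn turned to 0.05 without KO replicate 2, and Bhlhe40 to -0.03 with total count scaling.

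**Figure D4:**
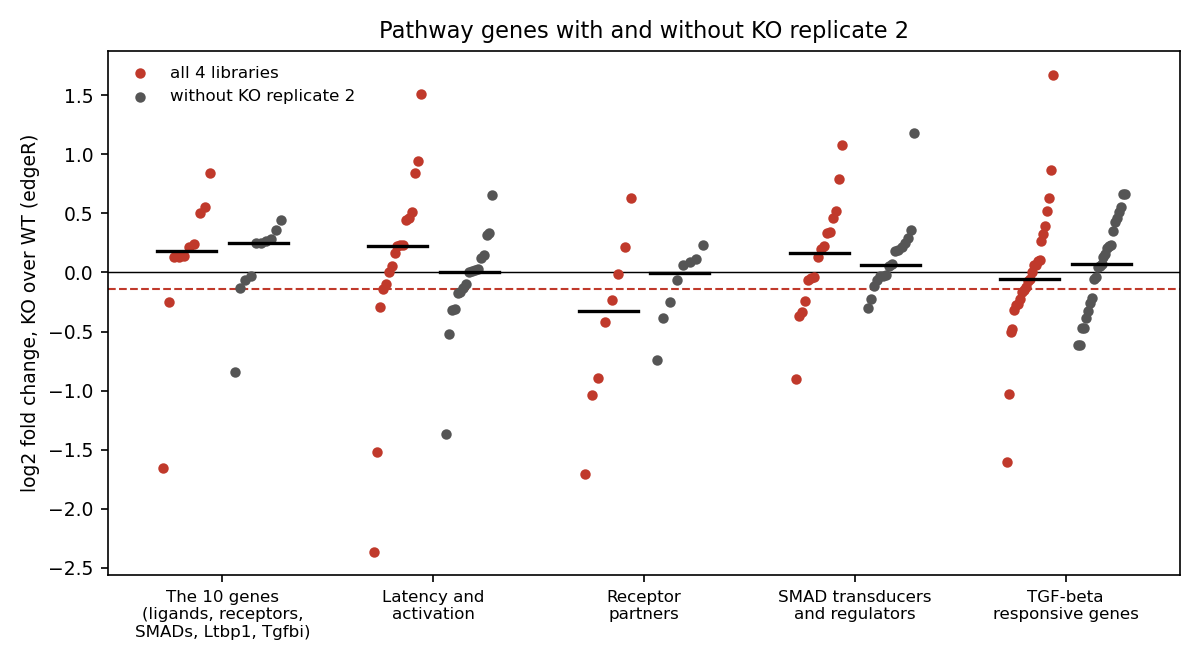
The log2 fold change of KO over WT for the 10 genes and for the tested genes of the 4 pathway lists, with all 4 libraries (red) and without KO replicate 2 (grey), a black line at each median and a dashed line at the median of all genes tested, -0.14. Without KO replicate 2 the medians are 0.25 for the 10 genes, of which 6 are then above 0, and lie between -0.002 and 0.07 for the lists. Among tested genes at 5 CPM or more the median is 0.05 with all 4 libraries and 0.008 without KO replicate 2.

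TGF-beta ligands and matrix genes are also made by stromal cells, so markers of such cells are given beside these values. A sort for green CD24+CD49fhigh cells selects against host stroma, which carries no reporter. In sorted bulk cells, fewer cells of a type and less RNA per cell cannot be told apart. The summed level of 9 fibroblast markers was 686 and 922 CPM in KO, against 580 and 639 CPM in WT, so the KO libraries lay above the WT libraries, as they did for Tgfb2, Tgfb3 and Fn1. This rested on Dcn: without it the other 8 summed to 533 and 701 CPM in KO and 491 and 533 CPM in WT, and KO replicate 1 no longer lay above WT replicate 2. Of the 9 markers, Dcn and Col6a1 were higher in both KO libraries than in both WT libraries, beside 13.2% of all genes tested. Pdgfrb was lower in both, beside 19.2% of all genes tested, and the groups of the other 6 overlapped. Their part in the differences of Tgfb2, Tgfb3 and Fn1 was not tested. The fibroblast marker Pdgfrb had 0 counts in KO replicate 2 and Pi16 had 0 in WT replicate 2, while the other 7 had a count in every library. The list shares Dcn with the latency genes, and Fbn1, at 399 and 487 CPM in KO and 384 and 407 CPM in WT, also belongs to both. The 7 endothelial markers summed to 145 and 74.4 CPM in KO and 105 and 170 CPM in WT. The sum was lowest in KO replicate 2, as Eng was, though Cdh5 and Tek were not lowest there. That library lay below both WT libraries in 54.9% of all genes tested, and the part of endothelial cells in Eng was not tested. The 6 pericyte markers summed to 188 and 211 CPM in KO and 151 and 265 CPM in WT, with Cspg4 and Kcnj8 at 0 in KO replicate 2. The groups thus overlapped in the summed markers of pericytes, the mural cells of small vessels. Of the 6, 1, Mcam, was higher in both KO libraries, beside 13.2% of all genes tested, and 0 lower in both, beside 19.2%. Mcam had 84 and 103 CPM in KO and 79 and 82 CPM in WT. The 7 immune markers summed to 96.8 and 319 CPM in KO and 65.6 and 148 CPM in WT. Most of this sum was Cd74, at 71.9 and 289 CPM in KO and 56.1 and 136 CPM in WT. Of the 7, 0 were higher in both KO libraries (13.2% of all genes tested) and 1, Csf1r, was lower in both (19.2%). The 6 adipocyte markers summed to 32.5 and 139 CPM in KO and 16.2 and 28.5 CPM in WT. Nearly all of the adipocyte sum was Fabp4, a gene not limited to adipocytes, and the cells it came from were not tested. The other 5 were at 0.834 CPM or less in every library. Adipoq, which defines adipocytes, was at 0 in 3 of the 4 libraries. The 8 basal markers summed to 11261 and 9663 CPM in KO and 9119 and 8679 CPM in WT, so the KO libraries lay above the WT libraries in this sum. Only 3 of the 8 did so singly, and the groups of the others overlapped. In KO replicate 2, Acta2, Myh11 and Cnn1 lay below both WT libraries and the other basal markers above both. Acta2 had 3707 and 2264 CPM in KO and 2493 and 2331 CPM in WT.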

How the data were processed

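Sorted basal mammary cells were measured in 4 RNA-seq libraries. The deposited values are raw read counts per Ensembl gene; the submitters' processing notes name TopHat2 (2.02), HTSeq and the NCBIM37 (mm9) build. Strand setting and overlap rule: not given in the sources used here. Reads of Tgfb2, Tgfb3 and Tgfbr3 cannot be told apart from those of noncoding genes that share exon bases in GENCODE M21. The 5 summary rows were left out: reads outside features were 57.6% to 61.5% and ambiguous reads 0.708% to 0.786%.

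Symbols, lengths and 3' UTRs came from GENCODE M21 (GRCm38), matched on identifiers (86.9% of rows, 98.6% of counts). KO was tested against WT over the whole table with edgeR 4.0.16 (R 4.3.3): filterByExpr, TMM, quasi-likelihood test, Benjamini-Hochberg adjustment at 0.05. Standard errors are the log2 fold change over the root of its F. CPM are TMM-scaled, and a count of 0 allows up to 3 counts, 0.0477 to 0.0719 CPM on that scale, for counting error only. The procedure was run on simulated counts drawn from the WT means and the spread of the WT libraries. These held no divergent library like KO replicate 2, so they give no measure of power in these data.

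The members and lists were chosen with earlier results of these data known. Named list genes were those called, the 3 most abundant and the 2 with the smallest p in each list; a gene that this rule names is not reported here. Alternatives were DESeq2 1.42.0, limma 3.58.1 voom, other scalings and filters, a replicate block and each library left out; a library then alone in its group was taken to vary as the rest do. Itgb3, Smurf2, Col1a1 and Sphk1 were not analysed here.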

Additional observations from a re-analysis of the deposited data

How the results depend on the processing

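The 10 genes, the pathway lists and all genes had 0 calls with DESeq2 size factors, total count or upper quartile scaling, limma voom, the replicate block, and with either other filter (none, or a mean of at least 5 CPM). DESeq2's Wald test called 4 genes, none of the 10 and none of the lists. With each library left out in turn, calls ran from 0 to 5724 for all genes, from 0 to 4 for the 10 genes and from 0 to 25 for the pathway lists, the highest each time without KO replicate 1; leaving out either WT library gave 5 calls over all genes. The cause was not tested. With the replicate block 79 genes had an unadjusted p under 0.05, against 147 without it; deviations of same-numbered libraries correlated at 0.02, so the numbers were not taken as pairs.

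Signs of uncalled log2 fold changes turned in these settings. Total count scaling gave -0.003 for Tgfbr2, -0.022 for Smad3, -0.119 for Itgav, -0.064 for Thbs1 and -0.032 for Bhlhe40. Upper quartile scaling gave -0.002 for Smad3, -0.106 for Itgav, -0.049 for Thbs1 and -0.024 for Bhlhe40, and a mean CPM of 5 or more gave -0.048 for Itgav. With a library left out, values ran from -0.034 to 0.969 for Ltbp1, -0.067 to 0.319 for Tgfbr2, -0.131 to 0.345 for Smad3, -1.037 to 0.253 for Smad7, -0.125 to 0.144 for Itgav, -0.007 to 0.119 for Thbs1, -0.077 to 0.044 for Fkbp1a, -0.383 to 1.543 for Dab2, -0.636 to 0.088 for Strap, -0.028 to 0.632 for Nedd4l, -0.168 to 0.052 for Postn and -0.29 to 0.349 for Bhlhe40.

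Ligand shares moved with the length used. By the longest transcript Tgfb1 had 7.47% in KO and 9.42% in WT. With no division by length Tgfb2 had 75.89% in KO and 72.41% in WT, and Tgfb3 19.76% in KO and 22.06% in WT. Over all annotated 3' UTRs 11.83% of genes held the miR-205-5p match, and a match to bases 2 to 7 was in 5 of the 10 genes and 33.95% of all. Counting error is widest where reads are few: Tgfbi had 25 reads and Bambi 8 reads in KO replicate 2.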
